A study of Mus musculus with 9 samples.

Results

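The response of hepatic progenitor cells to HGF/SF1 stimulation was described from 6 of the 9 arrays of the series, the 3 from HGF/SF1-treated cells and the 3 from untreated cells, chosen by the agent given in the labels. The cells were MLP29, a mouse hepatic progenitor line. In 3 experiments run on different days, they were held in medium with 0.1% serum for at least 16 h and then received 20 ng/ml HGF/SF1 for 24 h or nothing. The remaining arrays, from cells given an antibody that blocks α5β1 integrin at 10 µg/ml, entered only alternative fits. Each experiment gave 1 array per condition, so the HGF/SF1 array was compared with the untreated array of the same day, and the experiments were numbered 1, 2 and 3 as the labels list their days. With 1 cell line, 1 dose and 1 time, the comparison holds no course of the response, and an early transient change would not be seen at 24 h. In bulk RNA, fewer cells in a given state and less RNA per cell cannot be told apart.

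HGF/SF1, hepatocyte growth factor or scatter factor, is the ligand of the receptor tyrosine kinase Met. Bound Met recruits adaptors such as Grb2 and Gab1 and signals through the ERK, PI3K and Stat3 pathways. In epithelial cells it is known for scattering, invasive growth and branching, and in liver for the growth and survival of hepatocytes and their progenitors.

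RNA was measured on Affymetrix Mouse430A_2 arrays, and every value below is the authors' deposited log2 summary of a probe set. A difference of 1 on this scale is 2-fold. For each of 12393 genes, the brightest probe set naming it alone gave its value, and a gene or probe set is said to be called when limma gave an unadjusted p under 0.05 with the experiment as a block. The array medians lay between 5.95 and 6.08. The epithelial keratins Krt8, Krt18 and Krt19 had mean log2 values of 13.83, 14.06 and 13.30, and the hepatic transcription factor Hnf4a had 9.55. The progenitor markers Epcam and Afp had only 4.34 and 4.15, albumin (Alb) 4.08, and the leukocyte, endothelial and fibroblast markers Ptprc, Pecam1 and Col1a1 3.26, 3.67 and 3.96. These 6 markers lay below the median over all genes, 6.56. Over the whole lists, 1 of 13 measured leukocyte markers (Cd14, at 11.89), 2 of 22 hepatocyte genes, 12 of 23 progenitor and biliary genes, 0 of 14 mesenchymal and 0 of 12 endothelial markers lay above it.

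Few genes were called after 24 h of HGF/SF1 stimulation. Of 22626 probe sets, 552 were called (2.44%), 230 higher and 322 lower, where 5% pass such a threshold when nothing differs. The split turned with the scaling, to 395 higher and 186 lower after each array was centred on its median and to 266 each after quantile normalization. None passed a Benjamini-Hochberg adjusted p under 0.05 (0.0%), and the smallest adjusted p from limma was 0.943. The called probe sets had a median absolute difference of 0.33, and of those called, 0 lay a full 2-fold above and 3 a full 2-fold below the untreated level. Without the block, 156 probe sets were called in place of 552. Among genes, 279 were called (2.25%), 132 higher (1.07%) and 147 lower (1.19%). The 95% confidence interval of the difference lay within 2-fold in either direction for 12027 of the 12393 genes. Direction was shared by the 3 experiments for part of the genes, of which 1448 (11.7%) were higher and 1221 (9.85%) lower in 3 of 3 experiments. Neither share is above what 3 independent signs give when nothing differs. The groups did not overlap for 299 genes with all HGF/SF1 values above the untreated values (2.41%) and for 188 with all values below (1.52%). The counts of shared direction and of separation are descriptions without a test.

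Among genes above the median level that moved alike in 3 of 3 experiments, the 10 with the largest called increases were Twf2, Hilpda, AY036118, Chchd10, Map1lc3a, Stbd1, Ddit3, Stxbp4, Rin1 and B4galt7. Twf2, which encodes the actin monomer-binding protein twinfilin-2, had log2 values of 7.88, 7.94 and 7.47 in the untreated cells of experiments 1, 2 and 3 and 8.91, 8.36 and 7.94 after HGF/SF1. It was higher within every experiment, although the lowest treated array reached only the level of the highest untreated one, and its fitted difference was 0.64 (SE 0.15, limma, unadjusted p = 0.00731). Hilpda, a lipid droplet protein known as a target of hypoxia, was higher by 1.22, 0.33 and 0.23 (fitted difference 0.60, SE 0.21). Stbd1, which binds glycogen, was higher by 0.73, 0.47 and 0.32, and Rin1, a Ras effector that activates Rab5, by 0.65, 0.25 and 0.34. Ddit3, the stress transcription factor CHOP, went from 9.27, 9.65 and 9.90 to 10.13, 9.89 and 10.21, a difference of 0.47 (SE 0.15). Map1lc3a, of the autophagosome protein family LC3, differed by 0.52 and the mitochondrial protein gene Chchd10 by 0.54. The difference was largest in experiment 1 for each of these genes. The probe sets of Stxbp4 disagreed, with 1 of 2 higher.

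By the same rule, the 10 largest called decreases were those of Mt2, Egr1, Ncapg2, Sdc4, Kdelr2, Prc1, Pspc1, Dhcr7, Ckmt1 and Aacs. Egr1, the early growth response factor that ERK signaling induces, had 7.26, 7.51 and 7.47 in untreated cells and 5.46, 6.76 and 6.94 after HGF/SF1. All 3 treated arrays lay below all 3 untreated arrays, which held for Egr1 alone among these 20 genes, and the difference was -1.03 (SE 0.26, limma, unadjusted p = 0.00958). When limma drew the spread from the antibody arrays as well, Egr1 was no longer called, with an unadjusted p of 0.337. The metallothionein gene Mt2 differed by -0.68, -2.36 and -0.17, and its untreated values of 6.55, 9.16 and 11.09 spanned a wider range than these differences. Sdc4, the heparan sulfate proteoglycan syndecan-4, and Kdelr2, a receptor that returns proteins to the endoplasmic reticulum, were lower in experiments 1 and 3 (Sdc4 by -0.96 and -1.03, Kdelr2 by -1.21 and -0.72) and nearly level in experiment 2 (-0.01 and -0.04). Dhcr7, of the last step of cholesterol synthesis, and Aacs, which activates acetoacetate for lipid synthesis, had their largest differences in experiment 2. The probe sets of Pspc1 and Aacs disagreed, with 1 higher for each. Of the 20 genes, 16 had their largest difference in experiment 1, and Twf2, Stbd1, Rin1, Egr1 and Prc1 stayed called whichever experiment was left out. Each of the other 15 lost its call without at least 1 of the experiments.

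**Figure D1:**
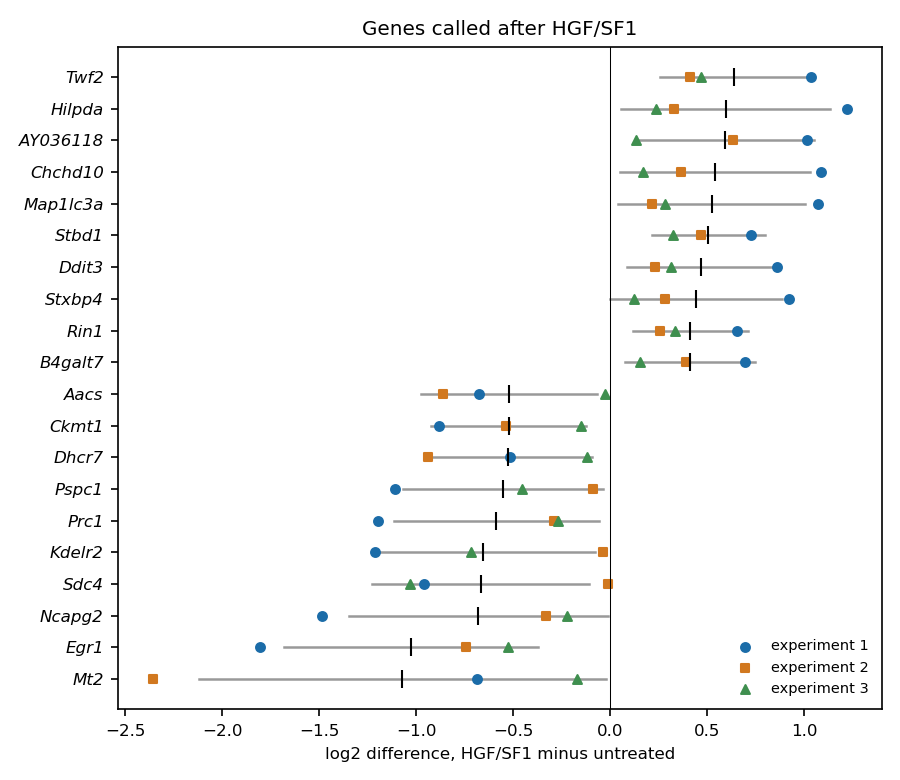
Log2 difference between HGF/SF1-treated and untreated cells for the 10 largest called increases and the 10 largest called decreases among genes above the median level with 1 direction in 3 of 3 experiments. Symbols are the 3 experiments, ticks the fitted difference and grey lines its 95% confidence interval; Twf2, at 0.64, heads the increases and Mt2, at -1.07, the decreases, and 16 of the 20 genes lie farthest from 0 in experiment 1.

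The receptor and its transducers were measured next. Of 34 genes of the ligand, its activators and inhibitors, the receptor and the signaling proteins below it, 29 were measured, and 0 were called higher and 1 lower, against 1.07% and 1.19% of all genes. Met itself had 9.83, 9.10 and 9.63 in untreated cells and 9.93, 8.998 and 9.36 after its ligand was added. The groups overlapped and the difference was -0.09 (95% confidence interval -0.37 to 0.19). Hgf was the gene called lower, by -0.28, at a low level (mean 3.85) and with its probe sets in disagreement. Hgfac, the protease that activates pro-HGF, differed by 0.24, and its inhibitor Spint2 by 0.01. Among adaptors and transducers, the differences were 0.20 for Grb2, -0.14 for Gab1, 0.03 for Shc1, -0.18 for the phosphatase gene Ptpn11 and 0.04 for Akt1, none of them called. Cbl, the ubiquitin ligase that directs Met to degradation, had the lowest value of the list, -0.64 (-0.99, 0.20 and -1.14 by experiment), and was not called. Its level was also low (mean 4.88), and 1 of its 2 probe sets was higher. Across the list the median difference was -0.06, beside 0.01 over all genes.

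Known response genes of Met were taken from 2 lists, immediate early genes and feedback inhibitors of ERK signaling, and genes of invasive growth. Of their 68 genes, 62 were measured, and 3 were called, Egr1, Spry1 and Cxcl1, all lower, beside 2.25% of all genes called and 1.19% called lower. As many of the 62 genes were higher as lower, 31 each, and the median difference was -0.00465. For 57 of the 62, the upper bound of the 95% confidence interval lay under a 2-fold increase, as it did for 98.9% of all genes, and the other 5 were Ier3, Dusp1, Mmp13, Ptgs2 and Hmox1. Of the 40 measured with a level above the median of all genes, 32 had an interval within 2-fold in either direction, beside 97.0% of all genes. The other 6 genes were not analysed here.

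Among the ERK response genes, the transcription factor gene Fosl1 had 7.87, 7.80 and 8.75 in untreated cells and 8.27, 7.88 and 8.94 after HGF/SF1. It was higher in 3 of 3 experiments by an amount that did not pass the test, 0.23 (95% confidence interval -0.04 to 0.50). Fos differed by -0.14 (-0.46 to 0.17), Junb by 0.06 (-0.29 to 0.41), Myc by -0.10 (-0.36 to 0.16) and Phlda1 by -0.06 (-0.33 to 0.21). None of these intervals reached a 2-fold change. Several feedback inhibitors differed between days. Dusp6, the ERK phosphatase, differed by -1.21, 0.08 and -0.10, Spred2 by -1.17, 0.17 and -0.04, and Spry2 by -1.01, 0.15 and -0.78, and none of these was called. Dusp7 was lower in 3 of 3 experiments, by -0.62, -0.13 and -0.14, and was not called. Spry1, at a low level (mean 5.21), was called lower by -0.28. Dusp1 and Ier3 were higher in experiment 1, by 1.53 and 1.47, with -0.17 and 0.23 in experiment 2 and -0.50 and -0.06 in experiment 3.

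Of the 30 measured invasive growth genes, 1 was called, Cxcl1, beside 2.25% of all genes. Plaur, the urokinase receptor, had 9.92, 10.04 and 10.90 in untreated and 10.08, 10.12 and 10.88 in treated cells, a difference of 0.07 (95% confidence interval -0.16 to 0.31). The membrane protease gene Mmp14 differed by 0.02 (-0.30 to 0.34), the hyaluronan receptor gene Cd44 by -0.08 (-0.47 to 0.32), and the laminin-binding integrin subunit gene Itga3 by 0.05 (-0.23 to 0.33). Vegfa was higher in 3 of 3 experiments by 0.20, 0.24 and 0.12 and was not called. Ccnd1, cyclin D1, differed by -0.25 (-0.57 to 0.06). Ptgs2, which encodes cyclooxygenase-2, was the member farthest above 0 in the fit, at 0.58. It had 7.94, 6.57 and 9.19 in untreated cells and 9.40, 7.32 and 8.71 after HGF/SF1, so that it was higher in experiments 1 and 2 by 1.46 and 0.76 and lower in experiment 3 by -0.48. In the full fit Ptgs2 was not called (limma, unadjusted p = 0.164). Without experiment 3, the one in which it was lower, Ptgs2 was called at 1.11 (limma, unadjusted p = 0.00471). That fit rests on 2 pairs of arrays, chosen here with the values known. In that fit 5 of the 62 members of the 2 lists were called, beside 855 of all 22626 probe sets. The members are counted with 1 probe set per gene, and the share of all genes called in that fit is not given here. Of the 5, Egr1, Spry1 and Ccnd1 were lower and Mmp13 and Ptgs2 higher. The chemokine gene Cxcl1 was called lower by -0.29, while its untreated level went from 8.15 in experiment 1 to 12.16 in experiment 3.

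**Figure D2:**
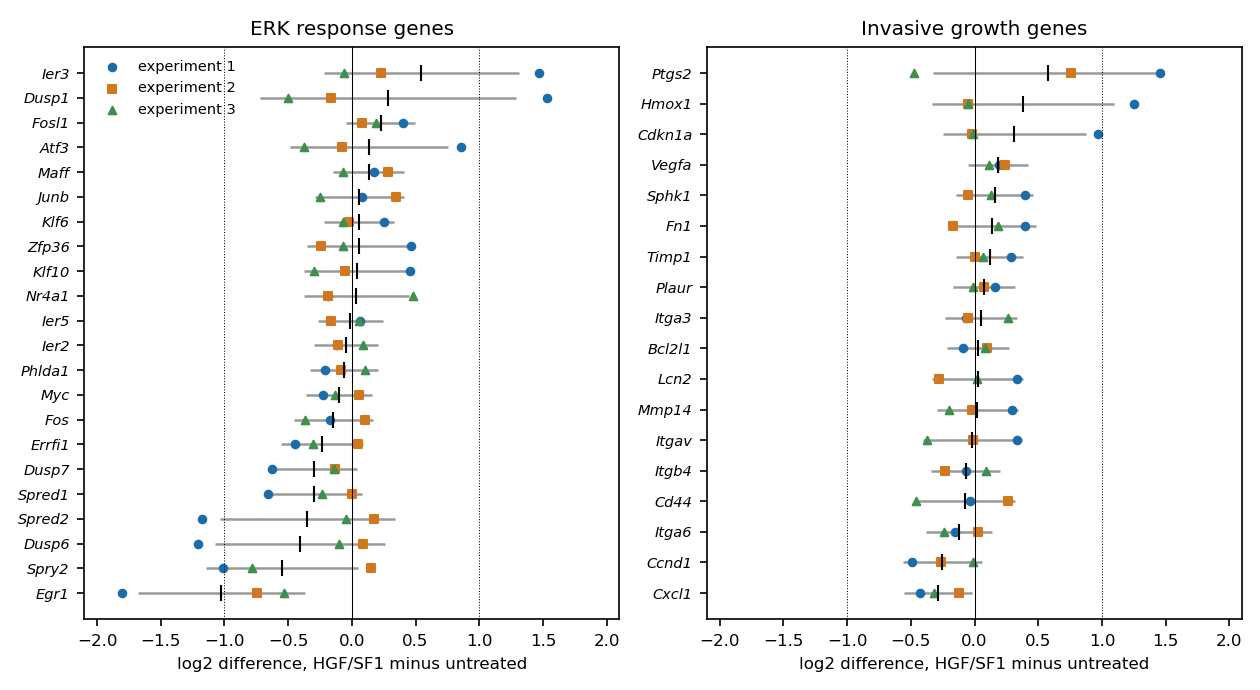
Log2 difference between HGF/SF1-treated and untreated cells for the 40 known response genes of Met above the median level, ERK response genes on the left and invasive growth genes on the right. Symbols are the 3 experiments, ticks the fitted difference, grey lines its 95% confidence interval and dotted lines a 2-fold change; 32 of the intervals lie inside the dotted lines, and Egr1, at -1.03, is lowest.

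The treatment differences were not alike in the 3 experiments. With 1 array per condition in each, a different response of the cells cannot be told apart from differences between arrays. The differences between treated and untreated cells had an SD over probe sets of 0.39 in experiment 1, 0.19 in experiment 2 and 0.25 in experiment 3. In experiment 1, 154 genes (1.24%) exceeded the untreated level by at least 2-fold and 253 (2.04%) fell short of it by as much. The same counts were 9 (0.0726%) and 3 (0.0242%) in experiment 2 and 0 (0.0%) and 53 (0.428%) in experiment 3. Across genes, which are not independent replicates, the differences correlated with r = 0.17 between experiments 1 and 2, -0.06 between 1 and 3 and -0.21 between 2 and 3. The SD of the difference between untreated arrays of 2 days, 0.35 to 0.44, was above that of the treatment difference in experiments 2 and 3. When the 20 genes above the median level with the largest differences in each direction were listed per experiment, the lists of experiments 1 and 2 shared Egr1 and Uhrf1 among the decreases, and no gene was among the largest in the same direction in experiments 1 and 3 or in experiments 2 and 3.

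**Figure D3:**
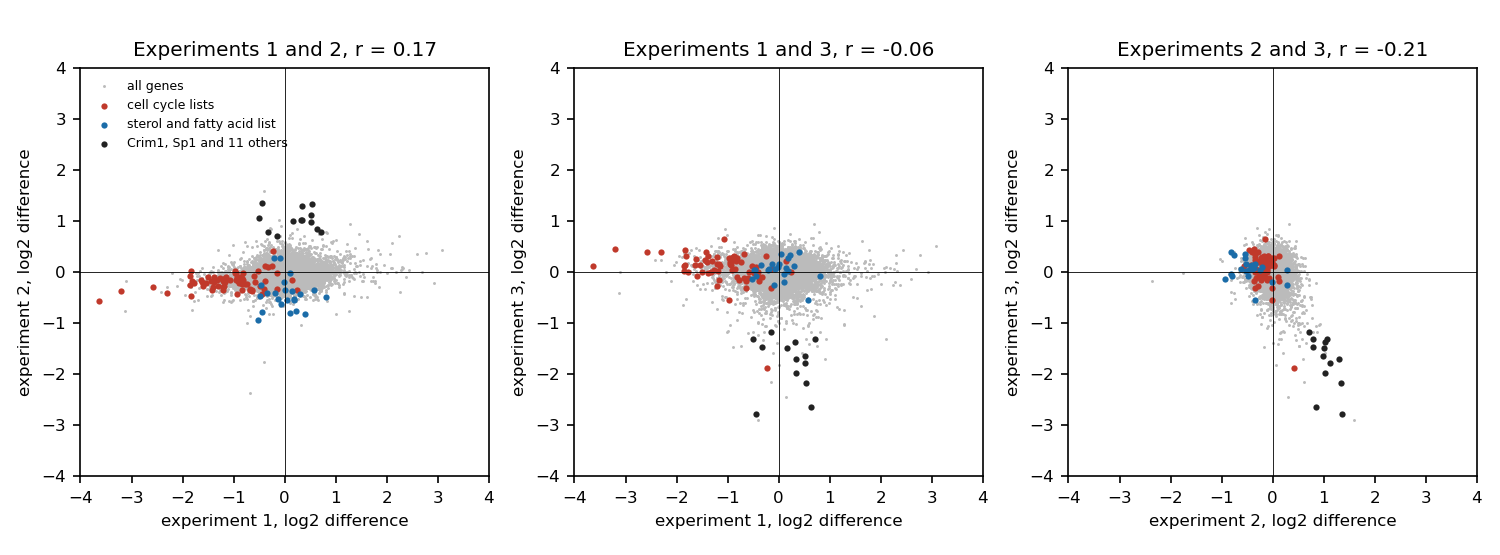
Log2 difference between HGF/SF1-treated and untreated cells in one experiment against another, 1 point per gene for 12393 genes, with the Pearson correlation across genes in each title (0.17, -0.06 and -0.21). Cell cycle genes (red) spread along experiment 1, sterol and fatty acid genes (blue) lie low in experiment 2, and 13 genes (black) lie high in experiment 2 and low in experiment 3.

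Cell cycle genes set experiment 1 apart. All 34 measured mitosis genes were lower after HGF/SF1 in experiment 1, with a median of -1.17, and 33 of 34 in experiment 2, with a median of -0.17, while 23 of 34 were higher in experiment 3, with a median of 0.05. The 33 measured genes of the G1/S transition and DNA replication had medians of -0.88, -0.26 and 0.20. Uhrf1, which maintains DNA methylation at replication, had 8.39, 8.76 and 7.97 in untreated cells and 4.75, 8.20 and 8.09 after HGF/SF1. The array of experiment 1 alone was low, with a difference of -3.65, and the fitted difference was not called. The thymidine kinase gene Tk1 followed at -3.20 in experiment 1 (-0.37 and 0.46 in the others), Rbl1, which encodes the pocket protein p107, at -3.11, the replication licensing gene Cdc6 at -2.57 and Mcm5, a subunit of the replicative helicase, at -2.30. Of the 20 largest decreases of experiment 1, 9 were members of the 2 lists. In that experiment 20 mitosis genes and 11 G1/S genes were lower by at least 2-fold, against 2.04% of all genes.

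The untreated cells of the 3 days did not start from the same level. The median log2 value of the mitosis genes was 9.44, 9.003 and 8.05 in the untreated cells of experiments 1, 2 and 3 and 8.27, 8.92 and 8.13 after HGF/SF1. That of the G1/S genes was 8.81, 8.63 and 7.77 before and 7.36, 8.20 and 8.09 after. Untreated cells were thus highest in experiment 1, where the decrease was largest, and lowest in experiment 3. In the fit, 4 of 34 mitosis genes and 2 of 33 G1/S genes were called lower, beside 1.19% of all genes, and 0 higher. Prc1, which bundles microtubules in the midzone at cytokinesis, had 9.41, 9.38 and 8.81 in untreated and 8.21, 9.08 and 8.54 in treated cells (difference -0.59, SE 0.21, limma, unadjusted p = 0.0351), and Cdc25c, Cenpe and Ccnf differed by -0.39, -0.50 and -0.38. Of the G1/S genes, the origin recognition gene Orc1 (-0.43) and the histone messenger-binding gene Slbp (-0.37) were called lower, and both had all treated values below all untreated ones. Over the mitosis list the median fitted difference was -0.42, and without experiment 1 it was -0.04; over the G1/S list it was -0.27, and 0.00 without experiment 1.

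Promoters of the 2 lists are shown because both groups were lower in experiment 1 and differ in the elements they hold. They were taken from RefSeq, build GRCm38.p6, as 250 bases before to 50 after the annotated start. The element TTTGAA, the core of the cell cycle homology region (CHR) known from promoters of late cell cycle genes, was searched on both strands and lay in 21 of the 28 mitosis promoters found in the table (75.0%), in 3 of 28 G1/S promoters (10.7%) and in 18.1% of all 27025 promoters. The E2F element TTTGGCGC, also searched on both strands, lay in 5 of 28 G1/S promoters (17.9%), in 0 of the mitosis promoters and in 0.537% of all promoters. The 2 elements share their first letters and do not hold each other. A match is a description of letters and not a site in use. The sequences below run from 130 bases before to 30 after the start, 5′ to 3′ on the gene's strand, with the element in capitals: Prc1 and Ccnf, called lower, with TTTGAA, and Mcm6, a helicase subunit that differed by -1.84, -0.46 and 0.43, with TTTGGCGC.
Prc1, chr7:80294321-80294480, plus strand: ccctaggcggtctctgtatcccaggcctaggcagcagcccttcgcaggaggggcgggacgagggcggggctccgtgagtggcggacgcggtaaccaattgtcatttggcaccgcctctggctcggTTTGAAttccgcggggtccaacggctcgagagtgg
Ccnf, chr17:24251380-24251539, minus strand: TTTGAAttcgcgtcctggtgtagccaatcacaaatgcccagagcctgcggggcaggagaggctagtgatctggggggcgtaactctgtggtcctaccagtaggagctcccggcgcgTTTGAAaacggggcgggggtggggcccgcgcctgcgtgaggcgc
Mcm6, chr1:128359676-128359835, minus strand: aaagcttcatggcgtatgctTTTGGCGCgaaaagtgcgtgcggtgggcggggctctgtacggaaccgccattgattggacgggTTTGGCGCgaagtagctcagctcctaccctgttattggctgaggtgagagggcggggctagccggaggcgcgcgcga
The element of Prc1 begins 5 bases before the start, those of Ccnf 130 and 14 bases and those of Mcm6 110 and 47 bases.

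Inhibitors of the cell cycle and p53 target genes were split in experiment 1, with 12 of the 21 measured members higher and 9 lower. The medians were 0.51, -0.03 and -0.11 in the 3 experiments, and 0 members were called in either direction, beside 2.25% of all genes. Gadd45a, a growth arrest gene, differed by 1.18, 0.26 and 0.12, and Mdm2, the ubiquitin ligase of p53, by 1.13, 0.21 and -0.33. Cdkn1a, which encodes the inhibitor p21, had 10.53, 10.63 and 10.50 in untreated cells and 11.50, 10.61 and 10.49 after HGF/SF1. Only the treated array of experiment 1 stood out. Cdkn1b, of the related inhibitor p27, went the other way, by -1.06, 0.20 and -0.49. The largest increases of experiment 1 were found in S100a8, a calcium-binding protein of inflammation, at 2.60, the epoxide hydrolase gene Ephx2 at 2.30, the histone genes H1f2 and H2aw at 2.28 and 2.19, the atrophy-related ubiquitin ligase gene Fbxo32 at 2.11 and the receptor activity-modifying protein gene Ramp3 at 2.07. In experiments 2 and 3 these 6 genes differed by between -1.31 and 0.57, both extremes being those of Fbxo32.

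Sterol synthesis set experiment 2 apart. The 23 measured genes of sterol and fatty acid synthesis had medians of 0.01, -0.46 and 0.07, and 21 of 23 were lower in experiment 2. Of the 20 largest decreases of that experiment, 8 were members, namely Dhcr7, Mvd, Idi1, Hmgcs1, Lss, Msmo1, Nsdhl and Fdft1. Hmgcs1, which makes the precursor of the mevalonate pathway, had 12.45, 11.55 and 9.77 in untreated cells and 12.00, 10.76 and 9.69 after HGF/SF1. It was called lower, at -0.44 (SE 0.15), as was Dhcr7, at -0.53 (SE 0.17). These 2 of the 23 members were called lower and 0 higher, beside 1.19% and 1.07% of all genes. Both calls were lost without experiment 1 and without experiment 2. The isopentenyl isomerase gene Idi1 differed by 0.10, -0.81 and -0.04 and the lanosterol synthase gene Lss by 0.23, -0.75 and 0.34. For these 2 genes a decrease of that size was not shared by the other days. Of the 23 members, 12 were higher and 11 lower in experiment 1, and 16 were higher and 7 lower in experiment 3. The untreated levels of these genes also differed between days, with 10.69 in experiment 1 and 7.93 in experiment 3 for Idi1 and 10.27 and 7.67 for Lss. The metallothionein genes Mt1 and Mt2 were the largest decreases of experiment 2, at -1.76 and -2.36.

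**Figure D4:**
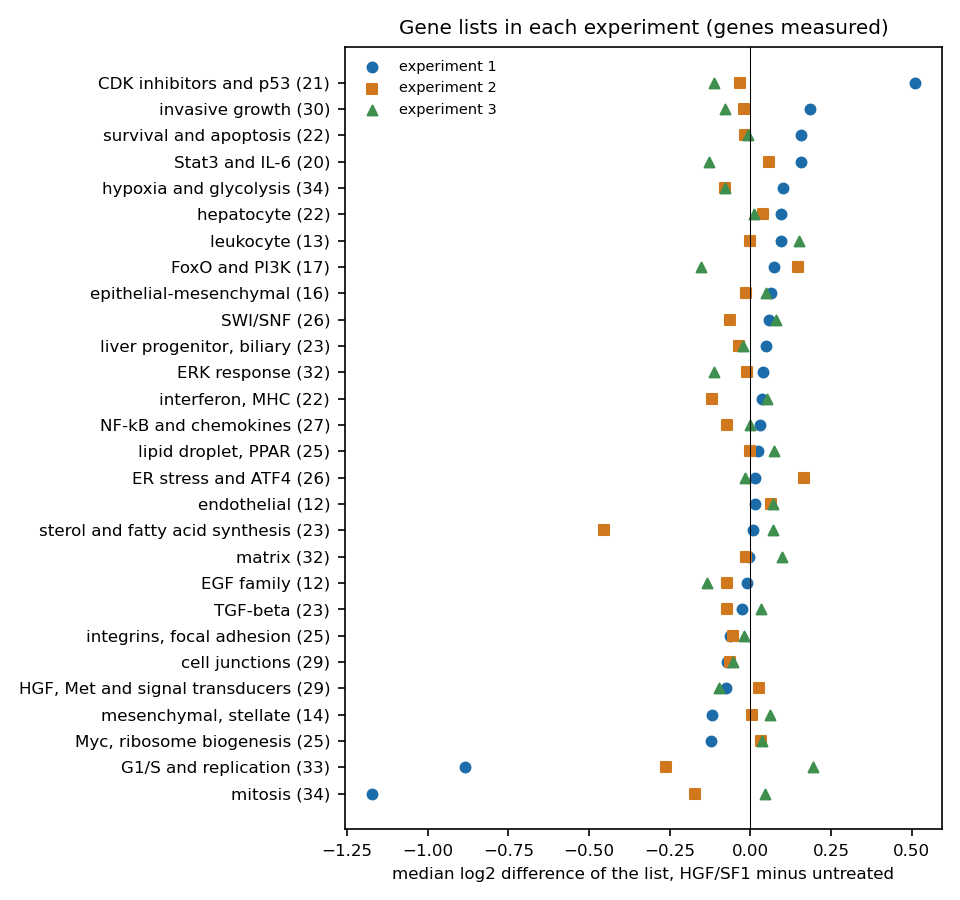
Median log2 difference between HGF/SF1-treated and untreated cells over the measured members of 28 gene lists (their number in brackets), 1 symbol per experiment. Mitosis and G1/S genes lie lowest in experiment 1 (-1.17 and -0.88), sterol and fatty acid synthesis lies lowest in experiment 2 (-0.46), and cell cycle inhibitors and p53 targets lie highest in experiment 1 (0.51).

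A group of 13 genes was among the 20 largest increases of experiment 2 and among the 20 largest decreases of experiment 3, namely Bcl2l11, Crim1, Ddr2, Hnrnpl, Kif5b, Malat1, Nrip1, Phip, Rbfox2, Rest, Sbno1, Sp1 and Zfp148. It was chosen by these values and is described without a test. Crim1, a transmembrane protein that binds growth factors, had 8.56, 6.14 and 9.23 in untreated cells and 8.13, 7.50 and 6.46 after HGF/SF1. The untreated array of experiment 2 and the treated array of experiment 3 were the low ones. The transcription factor gene Sp1, with 10.08, 8.18 and 9.66 before and 10.62, 9.51 and 7.49 after, and the nuclear long noncoding RNA Malat1, with 10.09, 8.60 and 10.88 before and 10.72, 9.46 and 8.24 after, had the same 2 low arrays. The median of the 13 genes was 8.43, 6.63 and 8.95 in untreated and 8.32, 7.94 and 7.04 in treated cells. The log2 ratio of the 3′ to the 5′ control probe set of β-actin, which grows as RNA is shortened, was 0.227, 0.873 and 0.197 in untreated and 0.299, 0.748 and 0.610 in treated cells. The 3 arrays with the highest ratios were those with the 3 lowest medians, and the part of the ratio in these differences was not tested. The same ratio for Gapdh lay between -0.318 and -0.0618, and the same 3 arrays had its 3 highest values.

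**Figure D5:**
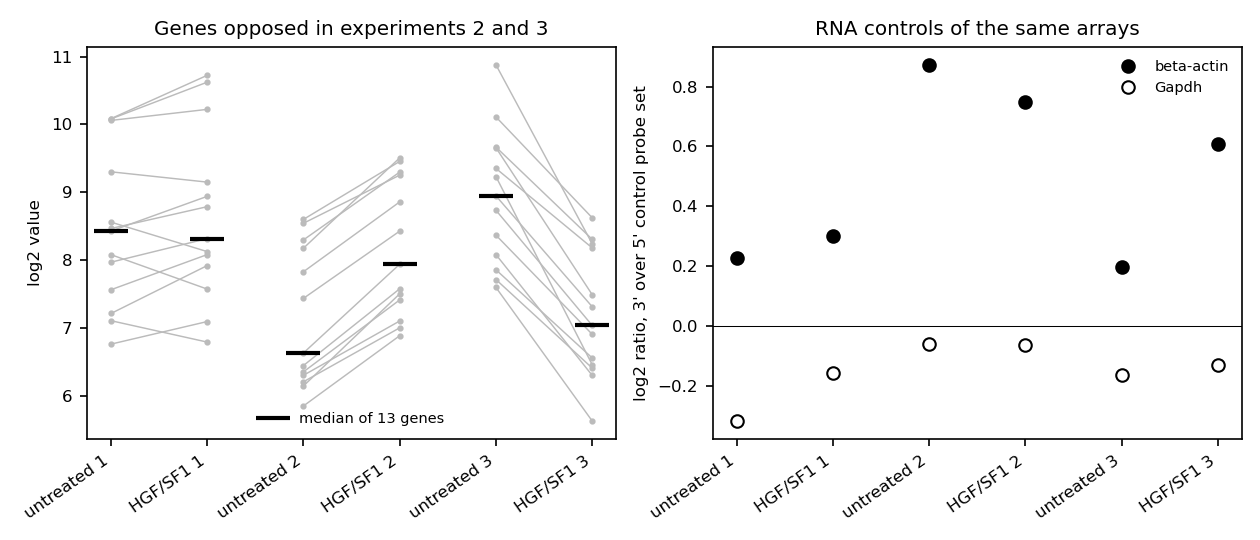
Left, log2 values of the 13 genes opposed in experiments 2 and 3 in the 6 arrays (grey, joined within an experiment) and their median (bars, from 6.63 in untreated cells of experiment 2 to 8.95 in untreated cells of experiment 3). Right, log2 ratio of the 3′ to the 5′ control probe set of β-actin (filled, 0.197 to 0.873) and Gapdh (open) in the same arrays.

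Stress genes gave the list with the most called increases. Of 26 measured genes of endoplasmic reticulum stress and the factor Atf4, 3 were called higher and 0 lower, against 1.07% and 1.19% of all genes. In 3 of 3 experiments 6 were higher, beside 11.7% of all genes. By experiment, 13, 24 and 12 of the 26 were higher, with medians of 0.02, 0.17 and -0.02. Only in experiment 2 were most members higher. Trib3, a pseudokinase induced by Atf4 and Ddit3, was higher by 0.35, 0.33 and 0.31 (fitted difference 0.33, SE 0.09, limma, unadjusted p = 0.0129), and lost its call without experiment 2. Chac1, which degrades glutathione, was higher by 0.68, 0.28 and 0.10, and Ddit3, given above, lost its call without experiment 1. The chaperone gene Hspa5 differed by 0.03 (95% confidence interval -0.22 to 0.28), Atf4 itself by 0.03 and Xbp1 by 0.04.

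Scattering cells loosen their contacts, and the genes of contacts were measured for that reason. The counts called in these lists are read beside 1.07% of all genes called higher and 1.19% called lower. Of 29 junction genes, the low-level connexin gene Gjb2 was called lower (-0.39, mean level 4.06), and E-cadherin (Cdh1) differed by -0.04 (-0.32 to 0.23). Among 25 integrin and focal adhesion genes, Fermt2, the integrin activator kindlin-2, was called lower with 8.07, 8.48 and 8.24 before and 7.54, 8.27 and 8.03 after HGF/SF1 (difference -0.31, SE 0.11). Among 16 genes of the epithelial to mesenchymal transition, the repressor gene Snai2 was called higher by 0.28 at a mean level of 5.52, and vimentin (Vim) differed by 0.09 (-0.15 to 0.33). Fermt2 and Snai2 were no longer called when any 1 experiment was left out.

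Single genes of other pathways were called lower. Erbb3, a receptor of the EGF family that pairs with other receptor kinases, had 8.14, 6.79 and 6.81 in untreated and 7.51, 6.46 and 6.47 in treated cells, a difference of -0.43 (SE 0.11, limma, unadjusted p = 0.00962) that stayed called whichever experiment was left out. The Notch receptor gene Notch2 and the Notch target Hes1 were called lower by -0.43 and -0.47, and 1 of the 2 probe sets of Notch2 was higher. The adhesion molecule gene Vcam1 differed by -0.23, -0.82 and -0.60, and Nfkbie, an inhibitor of NF-κB, by -0.23, -0.33 and -0.24, both called lower. Vcam1 lost its call without experiment 2, and Nfkbie without experiment 2 and without experiment 3. ND5, the one mitochondrially encoded gene of its list that was measured, was called lower at -0.41, with all treated values below all untreated ones. Of the 13 measured leukocyte markers, Cd68 was called higher by 0.40 at a mean level of 5.70, while Ptprc differed by 0.12, and the median level of the list was 4.45 to 4.92 in untreated and 4.83 to 4.96 in treated cells. Also called were Bcl6 of the FoxO list (-0.29) and Vhl and P4ha2 of the hypoxia list (-0.32 and -0.33). So were Usp18 of the interferon list (-0.24) and Col3a1 of the matrix and mesenchymal lists (0.29). The mean levels of Vhl, Usp18 and Col3a1 (6.17, 3.63 and 3.50) lay below the median level of all genes. Those of Vcam1 and Nfkbie (5.78 and 6.42) did so as well. In the lists of TGF-β targets, Stat3 and interleukin-6, survival and apoptosis, Myc and ribosome biogenesis, SWI/SNF subunits, hepatocyte genes and endothelial markers, 0 genes were called. The counts of this paragraph are read beside 2.25% of all genes called.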

How the data were processed

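RNA of MLP29 cells was hybridized to Affymetrix Mouse430A_2 arrays, 1 per condition and experiment. The authors background-corrected the arrays by rma in affylmGUI and deposited 1 log2 value per probe set and array. The normalization between arrays and the summary per probe set are not given in the sources used here, and the values were used as deposited. The number of arrays limits the precision of every value. The labels' agent gave the groups, and the day in the titles paired the arrays. As a check of the pairing, deviations from the group means correlated positively between the arrays of one experiment (r between 0.479 and 0.591). Between those of separate experiments r lay between -0.484 and -0.0994. Deviations within a group cancel out, so positive values within experiments make those between experiments negative on balance.

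Control probe sets (64) were set aside, and the other 22626 of the 3 HGF/SF1-treated and 3 untreated arrays were fitted in limma 3.58.1 (R 4.3.3) with the experiment as a block and eBayes (2 residual and 3.29 prior degrees of freedom). Tests were two-sided, and p-values were adjusted by Benjamini-Hochberg over all probe sets. The script was tested on simulated data. A single gene was named for 20380 probe sets, and 20351 of these matched a RefSeq symbol of GRCm38.p6. Summaries used Python 3.11.15. Some items are not reported here.

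The gene lists and the rule for named genes were chosen with earlier results of these data known. Named were the 10 largest called differences in each direction above the median level with 1 sign in all experiments, the 2 smallest p in each of 30 lists, and all known Met response genes above the median level. Further genes were named after their values were seen, as the largest in an experiment or as the only called members of a list. Alternatives left out the block, added the antibody arrays, centred or quantile-normalized the arrays, kept bright probe sets, used an intensity trend and left out each experiment.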

Additional observations from a re-analysis of the deposited data

How the results depend on the processing

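No probe set passed the adjusted threshold under any of the 10 alternatives. The 552 probe sets called by limma became 156 without the replicate block, 192 with all 9 arrays and no block, 411 with all 9 arrays and the block, 191 among the 11313 probe sets above the median level, and 459 to 855 when 1 experiment was left out (459 without experiment 1, 855 without experiment 3). Centring each array on its median gave 581 calls with 395 higher, 68.0% against 41.7% as deposited, and quantile normalization 532 with 266 higher, so the balance of directions depends on the scaling. The 3 called Met response genes became 1 without the block, 1 with all 9 arrays and the block, 0 without it, 1 after centring, 1 among bright probe sets, and 2 to 5 when 1 experiment was left out. Among bright probe sets, 285 of the 835 probe sets without overlap between the groups and 2476 of the 4954 with 1 direction in all experiments were counted. Of the 42 called genes that the rule names, 9 were called without the block, 18 with all 9 arrays and the block, 4 with all 9 arrays and no block, 34 after centring, 38 after quantile normalization, 35 with an intensity trend, 12 without experiment 1, 15 without experiment 2 and 29 without experiment 3, and 7 stayed called whichever experiment was left out. No named gene that was called changed its direction, but most of the alternatives left little or no room for that. Leaving out the block, adding the antibody arrays, keeping bright probe sets or using an intensity trend does not alter the fitted difference of a gene. A gene with 1 sign in all experiments also keeps it when 1 experiment is left out. The median 95% confidence interval of a probe set reached 0.28 to each side, which limits what 3 pairs of arrays can show.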

Other observations

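The largest increases of experiment 3 were small and included genes that were lower in experiment 1. Cavin1, a coat protein of caveolae, differed by -1.05, -0.07 and 0.86 in experiments 1, 2 and 3, the inner nuclear membrane protein gene Nrm by -1.19, -0.53 and 0.67, and the replication clamp loader gene Rfc3 by -1.08, -0.16 and 0.65. The untreated array of experiment 3 held the lowest of the 6 values for Rfc3, at 6.42, and for Cavin1, at 9.64. Untreated cells also differed between days in genes of inflammation and matrix breakdown. The collagenase gene Mmp13 had 4.28, 4.36 and 9.88 in untreated cells and 5.09, 5.14 and 8.72 after HGF/SF1, and S100a9 had 5.38, 4.80 and 8.88 before and 7.00, 4.92 and 8.87 after. For both, experiment 3 stood above the other days in either condition.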
